A study of Homo sapiens with 2 samples.

Results

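The H/ACA box small nucleolar RNAs (snoRNAs) were examined in a list of RNA sites bound by DDX18, a nucleolar RNA helicase of the DEAD-box family. A peak was taken when the nearest annotated start site was that of a SNORA gene and the peak centre lay at most 250 nt from it. SNORA73A, SNORA73B and positions also called in SNHG12 or SNHG1 were left out by rule. This left 104 of the 16095 distinct positions of the list (0.646%, exact 95% binomial interval 0.528% to 0.782%), on 78 H/ACA RNAs. The rule used position and gene name only, not height. The SNHG12 exclusion removed 5 positions, on SNORA16A, SNORA44 and SNORA61, with heights of 59 to 182, and SNORA73A and SNORA73B held 0 positions within the limit.

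The peaks came from iCLIP, in which ultraviolet light links a protein to the RNA it touches and the bound RNA is then purified and sequenced. The single group had 2 samples of H9, an established human embryonic stem cell line, which expressed 3XFlag-DDX18 and grew untreated on feeder mouse fibroblasts inactivated by irradiation. The cells received 1 ultraviolet dose of 160 mJ/cm2 at 254 nm, and DDX18 was recovered with an anti-Flag antibody, so the tagged protein was measured. Both samples share 1 list with 1 height per peak, no input or untagged sample was used here, and no value below has an error between samples or a test. Peak height is the authors' signal at the peak, not scaled to sequencing depth or to the abundance of the RNA, so a taller peak can be more binding per molecule or more molecules of that RNA, and these cannot be told apart. Intervals on shares are exact binomial intervals and cover counting error only.

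H/ACA RNAs fold into a pair of hairpins joined by a hinge that carries the H box, and end in a short tail that carries the ACA box. With dyskerin (DKC1), NOP10, NHP2 and GAR1 they form particles that convert chosen uridines of ribosomal and other RNAs to pseudouridine, the RNA choosing the site by base pairing. In human cells most are cut out of introns of other genes, their hosts, many of which encode ribosomal proteins and translation factors.

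Stretches of 4 H/ACA RNAs are annotated as microRNA hairpins and also carry a DDX18 peak, so the place of the peak can be shown in the RNA itself. The hairpins are given 5′ to 3′ from RefSeq (GRCh38.p14 table), with the bases under the peak in capitals. The first lies at the start of SNORA81 and carries its 5' peak, and the other 3 reach the ACA box near the 3' end of their H/ACA RNAs.
MIR1248 in SNORA81: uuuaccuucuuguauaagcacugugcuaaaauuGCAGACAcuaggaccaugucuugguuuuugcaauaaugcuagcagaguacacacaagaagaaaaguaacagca
MIR3651 in SNORA84: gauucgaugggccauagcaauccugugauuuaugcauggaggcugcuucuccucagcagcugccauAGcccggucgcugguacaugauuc
MIR664B in SNORA36A: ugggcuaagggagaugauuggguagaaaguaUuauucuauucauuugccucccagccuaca
MIR664A in SNORA36B: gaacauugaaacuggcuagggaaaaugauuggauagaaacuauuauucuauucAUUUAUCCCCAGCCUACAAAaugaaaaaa

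The SNORA81 peak (hg19 chr3:186504494-186504499, plus strand, in EIF4A2) had a height of 294. The start of SNORA81 differs by 1 nt between the annotations, so 7 bases are marked for a peak of 6. The peak in SNORA84 (hg19 chr9:95054762-95054763, minus strand, in IARS1) had a height of 112 and lay 19 nt from the 3' end of the RNA. The peaks in SNORA36A (hg19 chrX:153996902, plus strand, in DKC1) and SNORA36B (hg19 chr1:220373889-220373908, minus strand, in RAB3GAP2) had heights of 30 and 15 and lay 32 and 10 nt from the 3' end. These last 3 peaks are nearest to the start of the microRNA, so they are not among the 104. In each of these 3 hairpins the letters ACA end 3 nt before the 3' end of the H/ACA RNA, the place of the ACA box, and the peak centre lay 14, 27 and 5 nt upstream of them in MIR3651, MIR664B and MIR664A. As a measure of how often these letters stand at 1 fixed place, 28 of the 1562 human hairpins in the table (1.79%) have them ending 3 nt before their own end. The ACA box is part of what makes an H/ACA RNA, so its presence in these 3 is given by their class and is no result.

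Of the 182 SNORA genes in the gene table, 78 had a member peak (42.9%, interval 35.6% to 50.4%). By the same distance limit the share was 41.2% of 362 C/D box snoRNA genes, which guide ribose methylation. It was 69.0% of 29 small Cajal body RNA genes, relatives that guide modification of spliceosomal RNAs. Positions called in SNHG12 or SNHG1 were not left out of either class, here or below. With SNHG12 positions kept, 81 SNORA genes had a peak. A peak this close to a start site was found for 2.68% of protein-coding genes and 1.42% of all genes. The limit of 250 nt covers the whole of most snoRNA genes but only the start region of a protein-coding gene, so these shares are not like for like. Many H/ACA genes have near-identical copies, and whether a gene without a peak was transcribed in H9 cells was not measured here.

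The deposited annotation placed 57 of the 104 positions at the start of a transcript, 46 at the end of one and 1 in a non-coding exon. By distance from the start of the snoRNA, 100 lay inside the H/ACA RNA, in 76 RNAs, and they gathered at 2 places. With the RNA divided at its middle, the side toward its 3' end held 66 of the 100 peaks (66.0%, interval 55.8% to 75.2%) and the side toward its 5' end held 34. Peaks of this 3' side lay a median of 19 nt from the 3' end of the RNA (quartiles 15 and 28 nt), and 53 of the 66 lay 10 to 35 nt from it (80.3%). Peaks of the 5' side lay a median of 35.5 nt from the start (quartiles 26.2 and 38.8 nt), and 26 of the 34 lay 10 to 40 nt from it (76.5%). Both windows were chosen after the positions were seen. The middle of the RNA, from 0.3 to 0.7 of its length, held 16 peaks. In H/ACA RNAs of 120 to 150 nt, peaks of the 3' side lay a median of 115 nt from the start, against 35 nt for those of the 5' side.

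**Figure D1:**
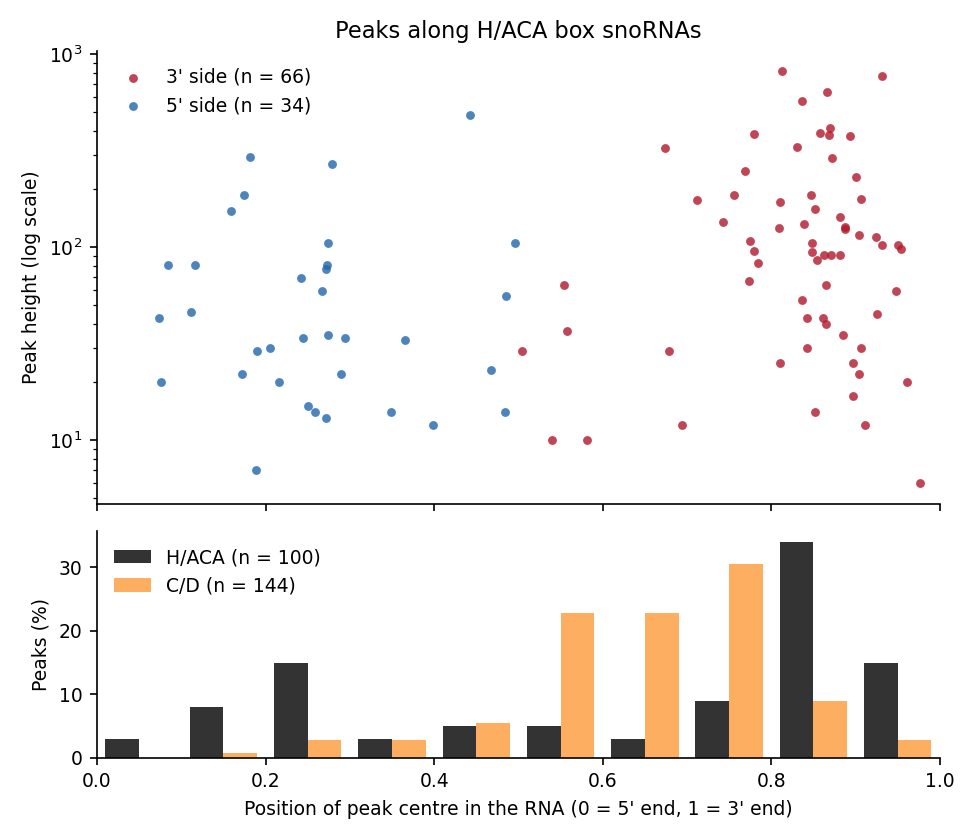
The upper panel plots the height of each of the 100 peaks inside an H/ACA RNA (log scale) against the position of its centre, from 0 at the 5' end of the RNA to 1 at the 3' end, with the 66 peaks of the 3' side and the 34 of the 5' side in different colours. The lower panel gives the share of peaks (%) in each of 10 equal stretches of the RNA for H/ACA and C/D RNAs. H/ACA peaks are most frequent between 0.8 and 0.9, with a smaller group between 0.2 and 0.3, while C/D peaks are most frequent between 0.7 and 0.8.

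The peaks of C/D RNAs were distributed differently along their RNAs. Only peaks inside the RNA were compared, which were 144 of 166 C/D positions and 100 of 104 H/ACA positions. Relative to RNA length the median position was 0.782 in H/ACA RNAs (quartiles 0.292 and 0.87), against 0.672 in C/D RNAs (quartiles 0.579 and 0.753). In C/D RNAs 125 of 144 peaks lay on the 3' side (86.8%, interval 80.2% to 91.9%), a range that does not overlap the H/ACA interval. In small Cajal body RNAs 14 of 28 peaks did (50.0%). The H/ACA share with SNHG12 positions kept was 65.7%. Peaks within 1 class come from RNAs that share sequence and length, so these intervals do not measure a difference between classes beyond this list.

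H/ACA peaks were tall and narrow compared with the list, with a median height below that of C/D RNAs. Their median height was 68 (quartiles 25 and 137, range 6 to 812), against 97.5 for the 166 C/D positions, 31 for the 29 small Cajal body RNA positions and 8 for the whole list. With SNHG12 positions kept, as they were for C/D RNAs, the H/ACA median was 69. The 104 positions held 1.97% of the summed height of the list, against 0.646% of its positions. Their median width was 3 nt against 13 nt in the list, and 36 of the 104 (34.6%) were 1 nt wide against 8% of all positions. The deposited p-value, the authors' own, reached its lower limit of 1e-100 in at least 1 entry for 52 of the 104 positions (50.0%) and for 15.5% of all positions. Of the 53 entries called in the snoRNA gene itself, 5 reached it, so most of the 52 rest on entries called in another gene.

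The 3' side also held the taller peaks. The median height was 96.5 on the 3' side (quartiles 37.8 and 178, range 6 to 812), against 34.5 on the 5' side (quartiles 20.5 and 81, range 7 to 480), a difference of 62. The summed height was 10212 on the 3' side and 2576 on the 5' side. Peaks were 1 nt wide in 29 positions of the 3' side and 6 of the 5' side. The ranges overlap: the 5' peaks of SNORA74A (480), SNORA81 (294) and SNORA67 (269) stood above the upper quartile of the 3' side.

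Of the 78 RNAs, 53 had 1 member peak, 24 had 2 and 1 had 3. A peak lay on the 3' side only in 42 RNAs (heights 6 to 812, median 100) and on the 5' side only in 11 RNAs (heights 14 to 185, median 33). The other 23 RNAs with peaks inside had 1 or more on both sides, and there the height can be compared within a single RNA, so that abundance is shared. In 20 of these 23 the 3' peak was the higher. The median ratio of 3' to 5' height was 1.75 (range 0.21 to 9.35), and in 7 RNAs the peaks were within 1.5-fold of each other. The median spacing between the 2 peaks was 90 nt (quartiles 82 and 102 nt).

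**Figure D2:**
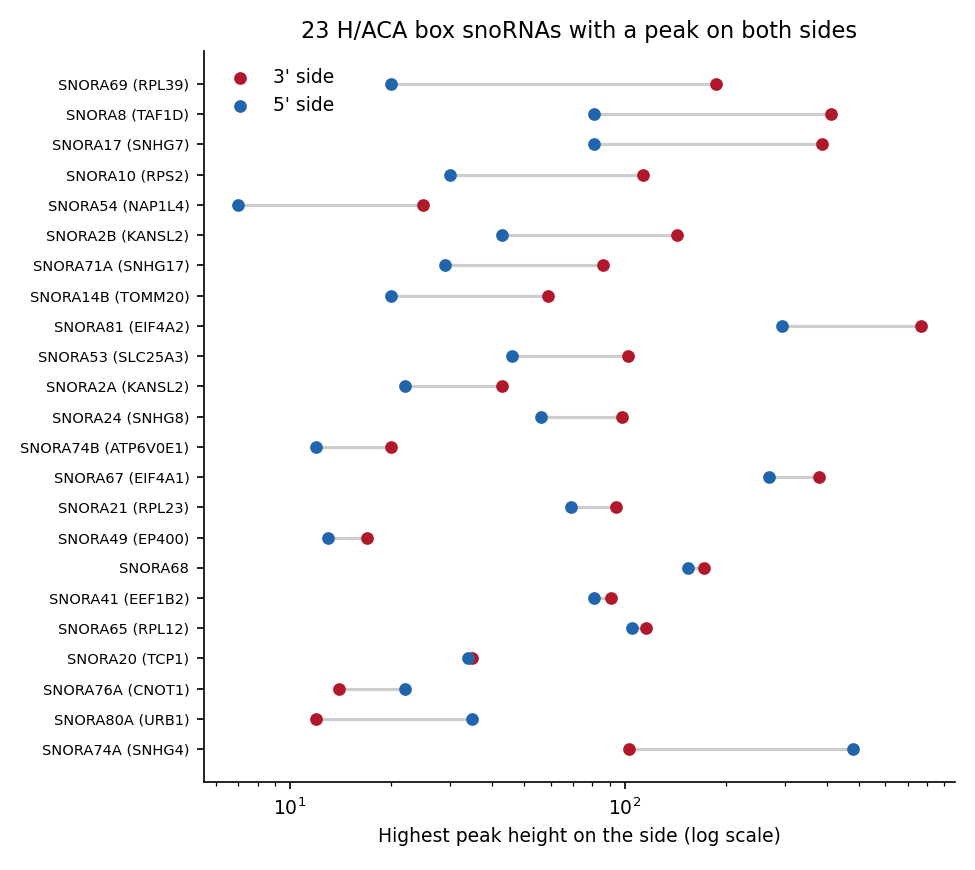
Each row is 1 of the 23 H/ACA RNAs with a peak on both sides, with its host gene in brackets where it is named; the points give the height of the highest peak on the 3' side and on the 5' side (log scale), joined by a line. The 3' point is the higher in 20 rows, and the exceptions are SNORA74A, SNORA80A and SNORA76A.

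The widest gap toward the 3' side was in SNORA69, with heights of 187 on the 3' side and 20 on the 5' side, a ratio of 9.35. The heights on the 3' and 5' sides were 413 and 81 in SNORA8 (ratio 5.10), 387 and 81 in SNORA17 (ratio 4.78) and 113 and 30 in SNORA10 (ratio 3.77). Ratios of 2.6 to 3.57 were found in SNORA54, with 25 on the 3' side and 7 on the 5' side, and in SNORA2B (143 on the 3' side, 43 on the 5' side), SNORA71A (86 on the 3' side, 29 on the 5' side) and SNORA81 (764 on the 3' side, 294 on the 5' side). Smaller ratios of 3' to 5' height were those of SNORA53 (102 to 46), SNORA2A (43 to 22), SNORA24 (98 to 56) and SNORA74B (20 to 12). The 7 RNAs within 1.5-fold had 3' to 5' heights of 381 to 269 in SNORA67, 94 to 69 in SNORA21, 17 to 13 in SNORA49, 172 to 154 in SNORA68, 91 to 81 in SNORA41, 116 to 105 in SNORA65 and 35 to 34 in SNORA20.

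The order was turned in 3 RNAs. SNORA74A, a long H/ACA RNA of 200 nt in the non-coding gene SNHG4, had 103 on the 3' side and 480 on the 5' side (ratio 0.21). SNORA80A had 12 on the 3' side and 35 on the 5' side (ratio 0.34), and SNORA76A had 14 on the 3' side and 22 on the 5' side (ratio 0.64). The SNORA74A peak of 480 lay 88 nt from the start, well inside the RNA, unlike most peaks of the 5' side. SNORA14B was the only RNA with 3 member peaks, with heights of 59, 10 and 20 at 127, 78 and 29 nt from the start.

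The 4 tallest H/ACA peaks were 1 or 2 nt wide and lay toward the 3' end. SNORA63, an intronic RNA of EIF4A2, which encodes a helicase of translation initiation, had the tallest at 812 (hg19 chr3:186505197), 109 nt into an RNA of 135 nt. SNORA81, in the same gene, followed with 764, at 164 of 177 nt. SNORA48, in the paralogous gene EIF4A1, had 633 (hg19 chr17:7478147), at 116 of 135 nt. SNORA62, in the ribosomal protein gene RPSA, had 571 (hg19 chr3:39452673), at 128 of 154 nt. All 4 are listed as guides of 28S ribosomal RNA, and all 4 peaks lay 12 to 25 nt from the 3' end.

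The next group comprised SNORA74A (480, SNHG4), SNORA8 and SNORA32 (413 and 390, both in TAF1D), SNORA17 (387, SNHG7), SNORA67 (381, EIF4A1) and SNORA13 (374, EPB41L4A-AS1). SNORA6 (331, RPSA), SNORA33 (327, RPS12), SNORA57 (290, CSKMT), SNORA45B (249, RPL27A) and SNORA18 (231, TAF1D) came after them. Heights of 187 to 132 were found for SNORA69 (RPL39), SNORA26 (DANCR), SNORA72 (RPL30), SNORA31 (TPT1), SNORA28 (EIF5), SNORA68, SNORA71B (SNHG17), SNORA2B (KANSL2), SNORA75 (NCL) and SNORA71D (SNHG17). Of these 25 RNAs, 23 had their highest peak on the 3' side, the exceptions being SNORA74A and SNORA26, whose peak of 185 lay 21 nt from the start. Of the 75 RNAs whose highest member peak lay inside the RNA, 62 had it on the 3' side (82.7%, interval 72.2% to 90.4%).

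At the low end stood SNORA36C with 6, the 5' peak of SNORA54 with 7, and peaks of 10 in SNORA11B, SNORA14B and SNORA7B. The 4 positions outside the RNA were also low: SNORA12 with 21 at 178 nt from the start of an RNA of 147 nt, SNORA29 with 12 at position -229, before the start, SNORA5A with 11 at -116, and SNORA7B with 10 just past the end. The members closest to the limit of 250 nt were SNORA53 (232 nt, height 102, inside an RNA of 250 nt), SNORA29 and SNORA74B (195 nt). The nearest positions beyond it lay at 445 nt from the start of SNORA48 (height 26), at 475 nt from that of SNORA70C (height 4) and at -521 from the start of SNORA72 (height 11).

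The 104 positions lay in 58 host genes, and their heights differed by kind of host. In 6 translation factor genes (9 RNAs, 12 peaks) the median height was 222 (95% interval of the median 91 to 633). It was 108 in 13 cytosolic ribosomal protein genes (21 peaks, interval 69 to 185), 86 in 11 non-coding genes (19 peaks, interval 30 to 157) and 32 in the 28 other protein-coding genes (52 peaks, interval 22 to 45). The interval of the other protein-coding hosts overlaps those of neither the translation factor nor the ribosomal protein hosts, and the intervals of the other 3 classes overlap each other. The translation factor value rests on EIF4A1 and EIF4A2, which held 7 of the 12 peaks. The 5 peaks in the other 4 translation factor hosts had heights of 81 to 176 and a median of 91, below the median of ribosomal protein hosts. Peaks of 1 host or RNA are not independent, so these intervals are too narrow. The expected height that the authors give for the host was also lowest in the other protein-coding hosts. Its median over hosts was 1.85 for translation factor genes, 2.81 for ribosomal protein genes, 1.55 for non-coding genes and 0.2 for other protein-coding genes, and its part in the heights was not tested. With the host taken as the gene whose span contains the RNA, the non-coding median was 49.5. SNORA13, SNORA17, SNORA43, SNORA71D and SNORA74A then counted as protein-coding. That rule took protein-coding genes first and did not match the strand. It moved SNORA13 from EPB41L4A-AS1 to EPB41L4A, so a gene it names need not be the true host.

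**Figure D3:**
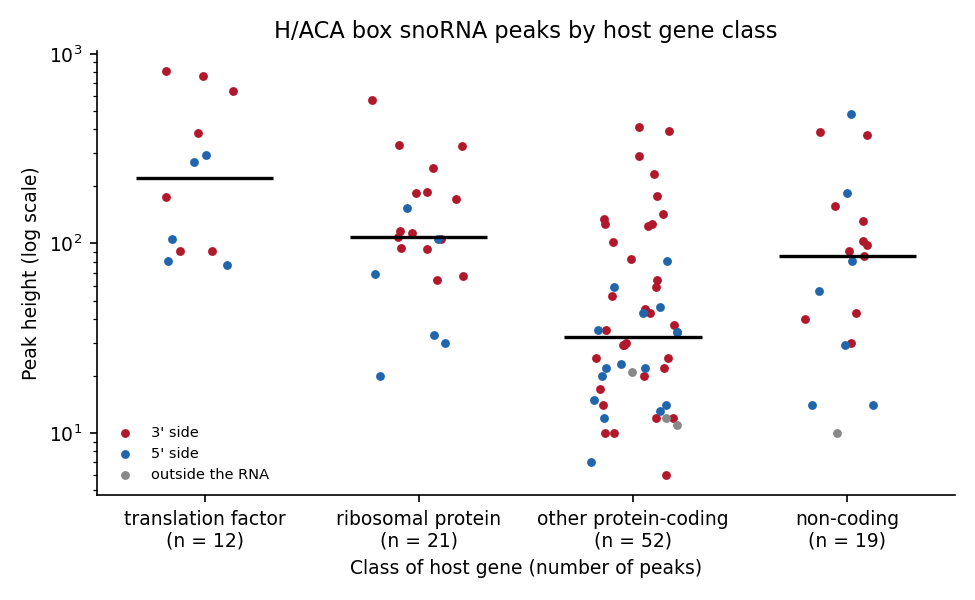
Each point is 1 of the 104 H/ACA peaks, placed by the class of its host gene and its height (log scale), coloured by the side of the RNA; the bar is the median of the class. Medians are 222 for translation factor hosts, 108 for ribosomal protein hosts, 86 for non-coding hosts and 32 for other protein-coding hosts, and all 4 classes overlap.

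The share of peaks on the 3' side did not separate the host classes. It was 58.3% of 12 peaks in translation factor hosts (interval 27.7% to 84.8%), 71.4% of 21 in ribosomal protein hosts (47.8% to 88.7%), 61.1% of 18 in non-coding hosts (35.7% to 82.7%) and 67.3% of 49 in other protein-coding hosts (52.5% to 80.1%). With so few peaks a class, differences of this size were not detectable.

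H/ACA RNAs of 1 host differed widely in height, although they lie in the same host gene. Of the 58 hosts, 46 had 1 H/ACA RNA with a peak, 8 had 2 and 4 had 3 or more. TAF1D, which encodes a subunit of an RNA polymerase I factor, held 6: SNORA8 (413), SNORA32 (390), SNORA18 (231), SNORA25 (124), SNORA1 (37) and SNORA40 (34). SNHG17, a non-coding host, held 4: SNORA71B (157), SNORA71D (132), SNORA71A (86) and SNORA71C (43). EIF4A2 held SNORA63 (812), SNORA81 (764) and SNORA4 (77), and KANSL2, which encodes a subunit of a histone acetyltransferase complex, held SNORA2B (143), SNORA2A (43) and SNORA34 (25).

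**Figure D4:**
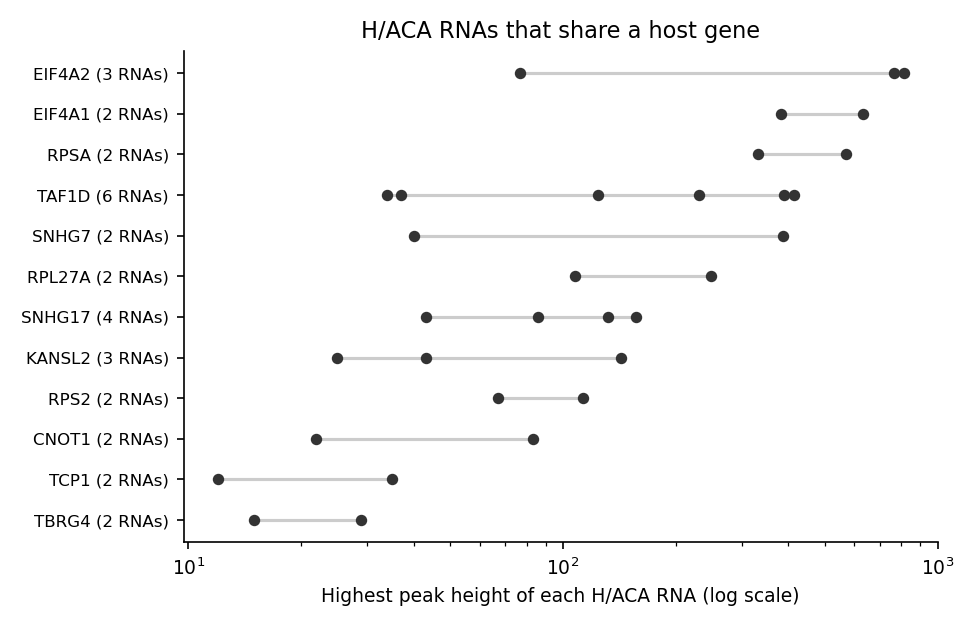
Each row is a host gene with more than 1 H/ACA RNA that has a peak, and each point is the highest peak of 1 RNA (log scale). The spread within a host reaches from 77 to 812 in EIF4A2 and from 34 to 413 in TAF1D.

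In hosts with 2 such RNAs the heights also differed. The heights were 633 and 381 in EIF4A1, 571 and 331 in RPSA, 249 and 108 in RPL27A, and 113 and 67 in RPS2. They were 387 and 40 in SNHG7, 83 and 22 in CNOT1, 35 and 12 in TCP1, and 29 and 15 in TBRG4. The widest gap among these 8 was in SNHG7, between SNORA17 and SNORA43.

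In 9 hosts an H/ACA RNA and a C/D RNA both had a peak, and neither kind was regularly the higher. The H/ACA peak was the higher in 5 hosts: TAF1D (413 against 80 for SNORD6), EIF4A2 (812 against 515 for SNORD2), EIF4A1 (633 against 607 for SNORD10), RPL5 (95 against 33 for SNORD21) and EEF1B2 (91 against 17 for SNORD51). The C/D peak was the higher in 3: RPS12 (327 against 569 for SNORD101), NCL (135 against 469 for SNORD20) and RPL21 (105 against 276 for SNORD102). In NOP56, which encodes a protein of the C/D particle, both were at 126. Elsewhere in the hosts peaks were low: 18 of the 58 had a peak outside small RNAs, their repeat copies and the snoRNAs of the newer gene table, with a median of 11.5 for the highest such peak and a maximum of 26 in POR. The H/ACA peak was the higher in 17 of these 18, and in AAK1 both were at 6.

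The authors' peak names also give an expected height for the gene in which a peak was called; how it was computed is not stated. Every position was called in a host, and 53 of the 104 (51.0%, interval 41% to 60.9%) were called in the snoRNA gene itself as well. This second call was made for 44 of 66 peaks on the 3' side (66.7%, interval 54% to 77.8%), against 9 of 34 on the 5' side (26.5%, interval 12.9% to 44.4%). Peaks of the 5' side were also lower (median 34.5 against 96.5), so this share is not separate from the difference in height. Some RNAs gave peaks to both sides, so the peaks are not independent. Against the expected height of the host, peaks stood a median of 56.8-fold higher (range 4.09 to 500). Against that of the snoRNA itself, a gene about as short as the RNA, they stood a median of 2.69-fold higher (range 1.42 to 15.3).

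**Figure D5:**
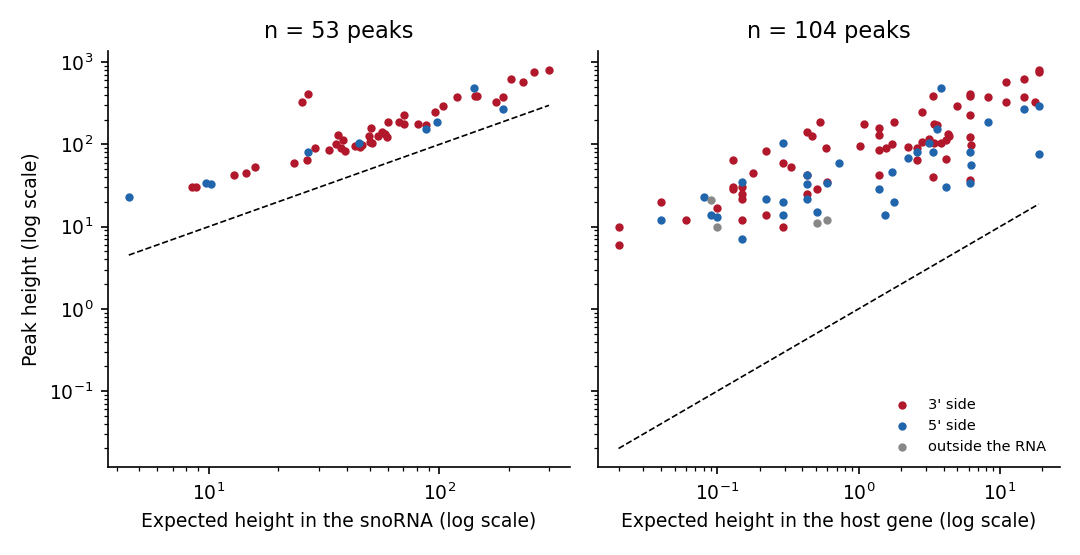
Peak height against the authors' expected height (both log scales), for the 53 peaks called in the snoRNA gene and for all 104 peaks called in the host gene, coloured by the side of the RNA; the dashed line marks equal values. All points lie above the line, close to it for the snoRNA (median ratio 2.69) and far above it for the host (median ratio 56.8).

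The ratio to the snoRNA's own expected height exists only for peaks that were called above it, so it was not compared between the sides. The highest such ratios were those of SNORA8 (413 against an expected 27.00) and SNORA33 (327 against 25.48), but peaks of neighbouring snoRNAs were also called in these 2 gene entries. The lowest ratios to the host were those of SNORA4 (4.09, in EIF4A2) and SNORA40 (5.54, in TAF1D). The highest deposited p-value among calls in the snoRNA was 0.0264, for the 5' peak of SNORA67, and among calls in the host 0.0376, for the 5' peak of SNORA54.

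Some of the H/ACA RNAs are copies of each other, and reads of near-identical copies may have been placed on either. By their present symbols, the 78 RNAs included 20 in 8 such families. Members of a family stood at unequal heights in SNORA74A and SNORA74B (480 and 20), SNORA17 and SNORA43 (now SNORA17A and SNORA17B, 387 and 40), SNORA2A, SNORA2B and SNORA34 (now SNORA2C, 43, 143 and 25), and SNORA80A, SNORA80B and SNORA80E (35, 59 and 127). They were closer in SNORA14A and SNORA14B (45 and 59), SNORA45A and SNORA45B (108 and 249) and SNORA5A and SNORA5C (29 and 15), and the 4 SNORA71 RNAs of SNHG17 are given above. Positions were alike in some families and not in others. Both SNORA45 RNAs had their peak 100 nt from the start, and SNORA74A had peaks at 88 and 189 nt against 81 and 195 nt in SNORA74B. SNORA5A had its inside peak at 67 nt and SNORA5C at 34 nt, and SNORA80B had a peak on the 5' side only, at 36 nt, while SNORA80E had one on the 3' side only, at 118 nt.

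Guides of both 18S and 28S ribosomal RNA carried peaks. Of 25 H/ACA RNAs listed as guides of 18S ribosomal RNA, 19 had a member peak, with a median highest peak of 91 (range 6 to 381). Of 23 listed as guides of 28S ribosomal RNA, 19 had one, with a median of 94 (range 10 to 812). Among all SNORA genes of the gene table, 78 of 182 had a member peak (42.9%). The guide lists were written from general knowledge, so these shares are not like for like. Single RNAs may stand in the wrong list, which would shift the values of both lists. Peaks of the 18S and 28S guides lay on the 3' side in 17 of 26 and 17 of 24 positions inside the RNA, close to the 66 of 100 of all H/ACA RNAs. SNORA42 and SNORA50 were also in the planned 18S list but are not counted under these names among the 25. Peaks of SNORA42 under another symbol may thus be missing from the 18S values. The guides without a member peak were SNORA36A, SNORA36B, SNORA44, SNORA50B, SNORA50C and SNORA5B for 18S, and SNORA16A, SNORA16B, SNORA61 and SNORA7A for 28S. Of these, SNORA36A and SNORA36B had the peaks in microRNA hairpins shown above, and SNORA16A, SNORA44 and SNORA61 had peaks left out as called in SNHG12.

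Outside H/ACA RNAs, peaks in the genes of the H/ACA particle proteins had heights of 5 to 23. Among the core proteins, DKC1, the pseudouridine synthase, had 2 peaks, and both lay in H/ACA RNAs of its introns: 53 in SNORA56 and 30 in SNORA36A. NHP2 had 1 peak of 11, GAR1 had 2 of 6, and none was listed for NOP10. The assembly factors NAF1 (9) and SHQ1 (5 and 6), the nucleolar phosphoproteins NOLC1 (8) and TCOF1 (9 and 8), and the ATPases RUVBL1 (23, 6, 12 and 6) and RUVBL2 (7, 7 and 7) stood near the list median of 8, between 5 and 12, except for the RUVBL1 peak of 23. Peaks were thus listed for 9 of the 10 genes. The share of all genes with a peak anywhere in the gene was not computed, so whether this count is unusual cannot be said.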

How the data were processed

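Per the labels' protocols, iCLIP libraries came from 2 samples of H9 cells expressing 3XFlag-DDX18, and nothing says whether they were separate cultures. FastQC 0.10.1, BWA and the hg19 build are named in the submitters' processing notes. Per the file header, peaks were annotated with HOMER's annotatePeaks.pl. For the peak caller and the reads per sample, nothing is given in the sources used here. Peak heights are signal values in whole numbers, deposited by the authors in 1 list, and the peak names hold the called gene, an expected height and a p-value, also the authors'.

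From these values, each position was counted once (167 entries, 104 positions). The deposited distance to the start site was turned by strand to give the place in the RNA. All 25 RNAs with several peaks then implied 1 start each. RNA lengths came from the RefSeq gene table (GRCh38.p14), which matched all 78 RNAs, 6 of them by newer symbols, and the distance between neighbouring RNAs was the same in both annotations for 20 of 22 pairs, the largest difference being 5 nt. A peak lay on the 3' side when its centre was at or past the middle of the RNA. The host was the called gene that is no small RNA, or, of several, that with the highest expected height.

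Python 3.11.15, pandas 2.3.3, SciPy 1.17.1 and matplotlib 3.10.9 were used. Intervals on shares are exact 95% binomial (Clopper-Pearson) and those on medians use order statistics. On positions simulated with the same distance rule, the placement recovered 400 of 400. This checks the code only, not the deposited distances. The members, lists and sides were chosen with earlier results of these data known, and the guide lists come from general knowledge. Named in the text are the 25 RNAs with the highest peak, those with peaks on both sides or 3 or more peaks, the 5 lowest peaks, peaks outside the RNA, those next to the limit, hosts with 3 or more H/ACA RNAs, and the genes of particle proteins. Others are named as members of a list, family or host group, chosen after their values were seen. Alternatives changed the point of the peak used, the limit, the p-value, the host rule and the counting of entries. The name of 1 host gene is not reported here.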

Additional observations from a re-analysis of the deposited data

How the results depend on the processing

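No paired analysis was possible because there is 1 group and 1 list with no value per replicate, and for the same reason no replicate could be left out. The share of H/ACA peaks on the 3' side was 82.7% with the highest peak of each RNA and 79.9% when weighted by height, against 66.0% with each peak counted once. Both alternatives give more weight to tall peaks, which lay more often on the 3' side. It ranged from 65% to 71.2% under the other alternatives run. The median height was 21.7 when divided by the width of the peak, against 68. The other values, 26 under alternatives fixed at the start and 4 under ones added after the data were seen, moved within the interval of the main value or within 1.5-fold for counts. Of these, 2 moved by over 1.5 times. The non-coding host median was 49.5 with the containing gene on either strand as host, against 86. The translation factor median was 91 without EIF4A1 and EIF4A2, against 222. Read depth and replicate spread were not given in the sources used here, so a missing peak does not show a lack of binding.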

Other observations

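The older annotation of the list has fewer snoRNAs than the present gene table. Of 41 positions beyond the limit but within 20000 nt of a SNORA start, 2 fell in another H/ACA RNA of that table, counted from the nearest SNORA start. A 1-nt peak of 83 (hg19 chr5:138611995, plus strand, called in SNHG4 and MATR3) lay 126 nt into SNORA74D, an RNA of 144 nt, 17 nt from its 3' end. A peak of 17 (hg19 chr17:37007802-37007809, minus strand, called in RPL23) lay 106 nt into SNORA21B, an RNA of 135 nt, 28 nt from its 3' end. Neither position is among the members, and both lie on the 3' side. The 3 peaks in the microRNA hairpins of SNORA84, SNORA36A and SNORA36B also lie there. These hairpins begin 46, 68 and 57 nt into their RNAs and so cover mostly the 3' side. The place of their peaks was thus largely set by how they were found.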
